A study of Mus musculus with 10 samples.

Results

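The SR family of splicing factors was examined in 10 mouse embryonic stem cell (ESC) lines through the genes Srsf1, Srsf2, Srsf3, Srsf4, Srsf5, Srsf6, Srsf7, Srsf9, Srsf10 and Srsf11. These 10 members were taken by gene name from a table of 20206 genes, and each was listed once. All 10 lines came from wild-type C57BL/6 blastocysts recovered at embryonic day 3.5, from mothers of 7 to 9 weeks, and all are labelled male. The LPD group holds 5 lines (1, 4, 6, 20 and 40) whose mothers were fed a low protein diet of 9% casein up to blastocyst recovery. The NPD group holds 5 lines (8, 15, 21, 36 and 51) whose mothers were fed a normal protein diet of 18% casein. Each line came from a different mother, and RNA was taken after culture without fibroblasts. A diet difference here is thus one measured in cultured lines and not in embryos, and when it arose was not measured. The question was whether the SR family differed between LPD and NPD lines.

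SR proteins carry RNA recognition motifs at one end and a tail rich in arginine and serine, the RS domain, at the other. They bind exonic sequences, recruit the U1 snRNP and U2AF to the splice sites, and several of them shuttle to the cytoplasm with spliced mRNA. Their RS domains are phosphorylated by the SRPK and CLK kinases, and many SR genes limit their own level by including an exon with a premature stop, which sends the transcript to nonsense-mediated decay (NMD). In ESCs, alternative splicing contributes to the balance between self-renewal and differentiation.

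The outcome in brief was a small difference for one pair of paralogues and none that passed adjustment. Srsf3 and Srsf7 were the only members with an unadjusted p under 0.05 in limma, 2 of 10 members and both higher in LPD lines, by 15.6% and 16.6%. Over all 14354 genes tested, 5.02% reached an unadjusted p under 0.05, of which the higher values in LPD lines made up 2.84% and the lower values 2.18% of genes tested. At a Benjamini-Hochberg adjusted p under 0.1, limma called 0 of the 10 members and 0 of all genes, which is 0% of those tested, and without LPD line 40 it called 40 genes, 0 of them members. The LPD and NPD lines overlapped for all 10 members. Over all genes tested, they did not overlap for 1.02%, 0.523% with LPD lines above and 0.495% with LPD lines below. With so small a share, 0 of 10 does not set the members apart. Of the 10 members, 6 had a log2 fold change above 0 and 4 below 0, with a median of 0.08, beside a median of 0.00 over all genes tested. The median of the members was 0.02 without LPD line 20, 0.13 without LPD line 1, 0.03 with array weights and 0.04 with equal totals. With equal totals the median over all genes tested was lower as well, at -0.03.

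The 3 members with the largest positive log2 fold changes were Srsf5, Srsf7 and Srsf3, and their promoters are shown because Srsf3 and Srsf7 differed by like amounts whereas Srsf5 varied from line to line. The sequences are the 250 bases before the RefSeq start on GRCm38.p6, 5′ to 3′ on the strand of the gene. They lie at chr17:29032410-29032659 on the plus strand for Srsf3, chr17:80207306-80207555 on the minus strand for Srsf7 and chr12:80945249-80945498 on the plus strand for Srsf5. Capitals mark matches on either strand to any of the motifs searched. These were the TATA-like letters TATANA, the CCAAT box, the GC box as GGGCGG, the cyclic AMP response element as TGACGTCA, its half-site TGACG, which the full element contains, the AP-1 site TGANTCA, the E2F site TTTNGCGC and the NRF1 site GCATGCGC.
Srsf3: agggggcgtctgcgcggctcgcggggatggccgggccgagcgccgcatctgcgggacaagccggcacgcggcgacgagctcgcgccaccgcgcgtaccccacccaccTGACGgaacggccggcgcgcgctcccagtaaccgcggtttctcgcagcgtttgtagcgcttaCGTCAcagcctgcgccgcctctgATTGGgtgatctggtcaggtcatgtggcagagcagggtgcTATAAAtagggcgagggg
Srsf7: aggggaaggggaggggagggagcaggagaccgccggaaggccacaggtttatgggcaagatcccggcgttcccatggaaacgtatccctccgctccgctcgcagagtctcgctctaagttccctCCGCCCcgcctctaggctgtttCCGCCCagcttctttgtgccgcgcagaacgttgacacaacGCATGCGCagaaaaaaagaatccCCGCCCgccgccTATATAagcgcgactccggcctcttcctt
Srsf5: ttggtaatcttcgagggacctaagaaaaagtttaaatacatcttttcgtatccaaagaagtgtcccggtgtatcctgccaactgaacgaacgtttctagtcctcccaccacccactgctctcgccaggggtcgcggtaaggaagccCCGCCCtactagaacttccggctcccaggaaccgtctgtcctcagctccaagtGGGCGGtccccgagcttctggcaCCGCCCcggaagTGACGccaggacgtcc

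A TATANA match began 18 bases before the start in Srsf3 and 29 bases before it in Srsf7, and none was found in the Srsf5 window. The Srsf3 window ends at 29032659, beyond the GENCODE M21 start of 29032628, so its TATANA match lies inside the gene in that annotation. The same letters were present in the windows of 3 of the 10 members, Srsf2, Srsf3 and Srsf7, and in 22.6% of 32817 windows of the same length. The half-site TGACG was present in Srsf3 and Srsf5 but not in Srsf7, in 6 members in all and in 17.8% of all windows. GGGCGG was found for 9 of 10 members, all but Srsf3, and in 32.7% of all windows, and CCAAT for 3 members (Srsf2, Srsf3 and Srsf10) and in 33.8%. GCATGCGC was found for Srsf7 and Srsf11 and in 2.25% of windows, and TTTNGCGC for Srsf10 and in 1.13%. TGACGTCA and TGANTCA, which were found in 508 and 2216 of all windows, were present in 0 of the 10 members. Some members have more than 1 window, and a match in any of them was counted. The GC content was 69.6% for Srsf3, 61.6% for Srsf7 and 56.8% for Srsf5, beside a median of 52.4%. These are matches of letters, with no measurement of binding.

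Facts about the lines that touch the members come first. Relative depth was 20468907 to 24111814 read equivalents in 7 lines but 5817367 in LPD line 4, 12361556 in LPD line 6 and 11252489 in LPD line 40, and the least covered member still had 799.6 read equivalents, in LPD line 4. Pou5f1 (18250 to 30420) and Nanog (5141 to 11571) were high in every line, as ESCs require. Ddx3y, a Y-linked gene, was 7.70 in NPD line 15 and 173.8 in LPD line 4 but 1110 to 1493 in the other lines. Over genes whose mean was 100 or more, the median log2 deviation of chromosome Y was -7.05 in NPD line 15 and -2.76 in LPD line 4. That of chromosome X was 0.49 in NPD line 15, 0.001 in LPD line 4 and -0.06 to 0.03 in the other lines. These values go against the male label of NPD line 15. In LPD line 4 the Y-linked values were low but X was not raised, which leaves its label unclear. The cause was not tested, and results are also given without both lines. The summed value of 8 fibroblast markers, all 8 listed, ranged from 352.0 to 3369 in LPD lines and from 437.5 to 5729 in NPD lines, highest in NPD line 15. The summed value of 6 primitive endoderm markers was 11578 to 24300 in LPD lines, highest in line 1, and 10749 to 20061 in NPD lines, and that of 6 neural or mesoderm markers was 768.8 to 1948 and 817.0 to 1575. The summed value of 6 trophectoderm markers ranged from 1555 to 8308 in LPD lines, highest in LPD line 6, and from 1288 to 2561 in NPD lines. In these marker lists, 0 genes were at 0 in all lines, and the fibroblast marker Lum was at 0 in all but LPD line 6 (1.39), NPD line 36 (0.721) and NPD line 15 (111.5). The part of these in the results below was not tested. In such bulk samples, fewer cells of a type and less RNA per cell cannot be told apart.

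Values are normalized estimated counts and, for every gene below, are listed in the order of LPD lines 1, 4, 6, 20 and 40 and then NPD lines 8, 15, 21, 36 and 51. Fold changes are LPD against NPD on the log2(value + 1) scale, with SE, and p-values are from limma across all genes or from the exact two-sided permutation test over all assignments of the lines to groups of 5, whose smallest possible p is 0.00794.

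**Figure D1:**
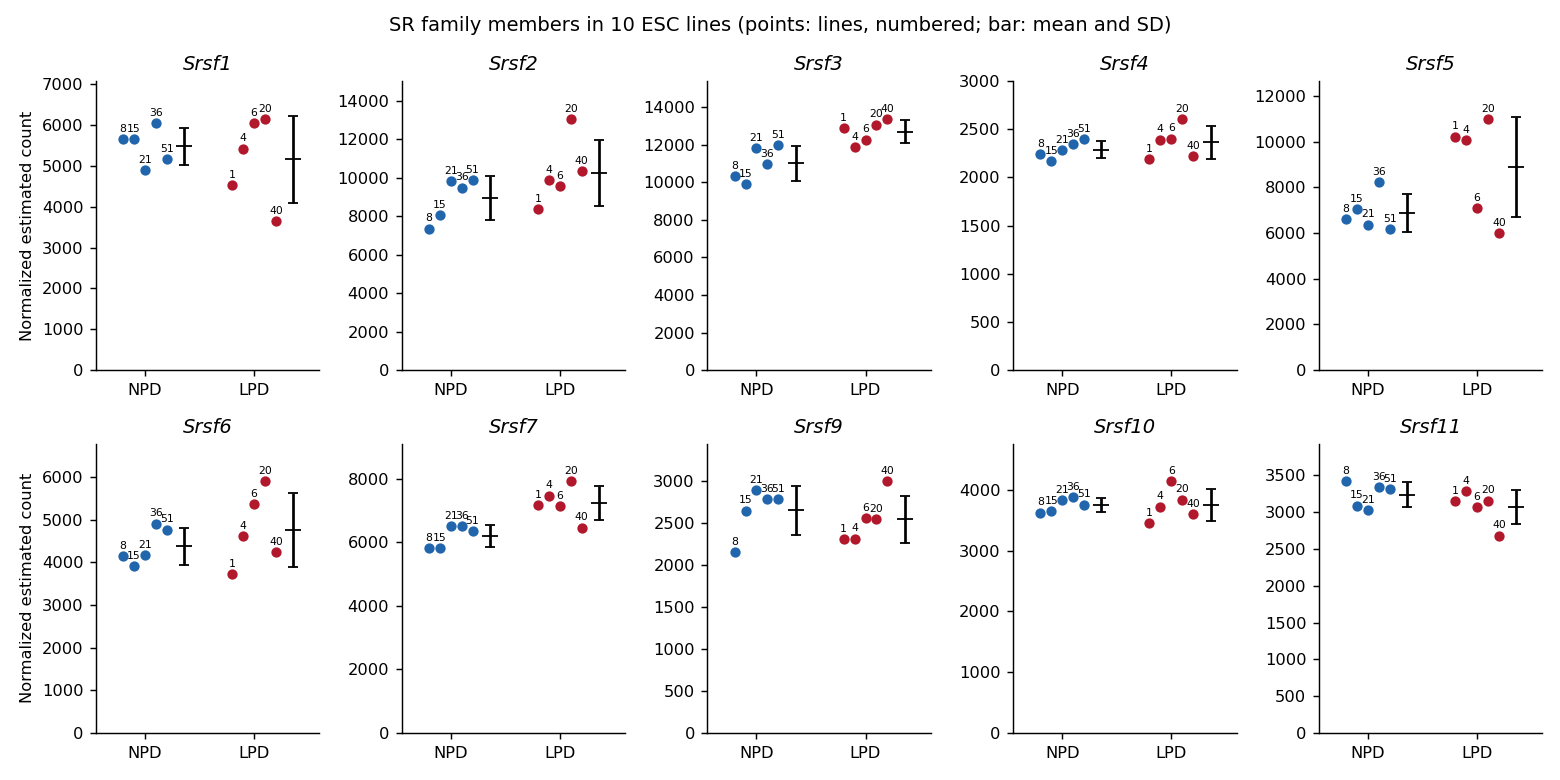
Normalized estimated count (y axis, from 0) of each SR family member in the 5 NPD lines (blue) and the 5 LPD lines (red), each point 1 line with its number, and the mean with SD in black. For Srsf3 and Srsf7, 4 of 5 LPD points lie above every NPD point, while Srsf5 divides the LPD lines into 3 between 10055 and 11000 and 2 at 6002 and 7104.

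Srsf3 and Srsf7 are the pair of paralogues that link splicing to mRNA export through the receptor NXF1, and SRSF7 additionally carries a zinc knuckle. Both genes are on chromosome 17, Srsf3 (ENSMUSG00000071172) at 29032628 to 29043373 and Srsf7 (ENSMUSG00000024097) at 80200080 to 80207307, 51.2 Mb apart. Srsf3 values were 12881, 11863, 12276, 13068 and 13381 in LPD lines and 10325, 9895, 11838, 10962 and 11986 in NPD lines. Thus 4 LPD lines exceeded every NPD line, and LPD line 4 lay just under NPD line 51. The means were 12694 ± 615 (SD, n = 5) and 11001 ± 915 (SD, n = 5), a log2 fold change of 0.21 ± 0.08 (limma p = 0.0220, adjusted p = 0.911, exact permutation p = 0.0159).

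Srsf7 values were 7175, 7462, 7127, 7911 and 6460 in LPD lines and 5803, 5813, 6496, 6515 and 6342 in NPD lines. Again 4 LPD lines exceeded every NPD line, with LPD line 40 as the exception, at a level between NPD lines 51 and 21. The means were 7227 ± 530 and 6194 ± 358 (SD, n = 5 each), a log2 fold change of 0.22 ± 0.08 (limma p = 0.0140, adjusted p = 0.839, exact permutation p = 0.0238).

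The direction of both genes held in 21 of 21 alternative limma fits, with an unadjusted p under 0.05 in 17 of them for Srsf3 and in 20 for Srsf7. Without LPD line 4 and NPD line 15, neither kept it, with log2 fold changes of 0.20 ± 0.09 for Srsf3 and 0.19 ± 0.10 for Srsf7 and a limma adjusted p of 0.998 for both. The unadjusted p of Srsf3 was also above 0.05 with array weights, without NPD line 15 (log2 fold change 0.17) and without NPD line 8 (0.19), the 2 lines in which it was lowest. On the scale of equal line totals the log2 fold changes were 0.17 and 0.19. The median log2 deviation of chromosome 17 ran from -0.03 to 0.03 over genes whose mean was 100 or more and from -0.05 (LPD line 1) to 0.06 (LPD line 20) over genes whose mean was 1000 or more. With chromosome medians removed, the log2 fold changes were 0.21 for Srsf3 and 0.22 for Srsf7. Sparc, a primitive endoderm marker, was lowest in the same 2 NPD lines as Srsf3, at 10367 in line 15 and 10563 in line 8. It was highest in LPD lines 1 (20403) and 40 (18770). Gata4 (67.6), Gata6 (39.4), Sox17 (11.6) and Dab2 (102.9) were also lowest in NPD line 15, the line lowest in Srsf3, whereas Pdgfra was lowest in LPD line 6 (98.0). All of these markers but Sparc were lower in LPD line 6 than in NPD line 8, unlike Srsf3. Gata4 (1079), Gata6 (569.9) and Dab2 (2165) were highest in NPD line 36, and Sox17 (407.6) and Pdgfra (529.9) in LPD line 40. The part of these markers in the result was not tested.

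The ratio of Srsf3 to Srsf7 did not differ detectably between the diets. It was 1.80, 1.59, 1.72, 1.65 and 2.07 in LPD lines and 1.78, 1.70, 1.82, 1.68 and 1.89 in NPD lines, with means of 1.77 ± 0.19 and 1.77 ± 0.09 (SD, n = 5 each). The difference of the log2 ratio was -0.01 ± 0.07 (exact permutation p = 0.889, adjusted p = 0.889 over 5 ratios). The ratio spread wider in LPD lines (1.59 to 2.07) than in NPD lines (1.68 to 1.89), with LPD line 40 as its highest and LPD line 4 as its lowest line. For the genes themselves, the SD on the log2 scale was 0.07 in LPD and 0.12 in NPD lines for Srsf3, and 0.11 and 0.08 for Srsf7. Among all 45 pairs of members, the SD over the 10 lines of the log2 ratio was 0.109 for Srsf3 to Srsf7, the smallest after Srsf4 to Srsf10 at 0.07. Close behind were Srsf4 to Srsf7 (0.110), Srsf4 to Srsf11 (0.111) and Srsf10 to Srsf11 (0.118), so a steady ratio was not particular to Srsf3 and Srsf7. The largest SD of the 45 pairs was 0.43, for Srsf5 to Srsf9.

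**Figure D2:**
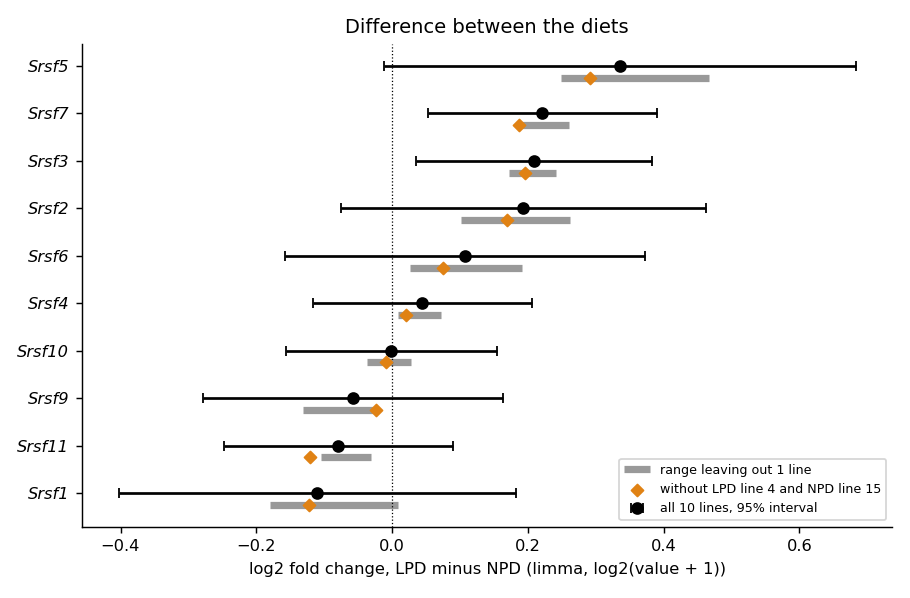
Log2 fold change of each member, LPD minus NPD (x axis), ordered by size, with black points and bars for all 10 lines and the 95% interval, grey bars for the range when 1 line is left out, and orange diamonds for the fit without LPD line 4 and NPD line 15. The intervals of Srsf3 (0.04 to 0.38) and Srsf7 (0.05 to 0.39) lie above 0 and the other 8 include it.

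Srsf4, Srsf5 and Srsf6 are treated here as 1 group of relatives, and their proteins carry a second, degenerate RNA recognition motif, which is not particular to them. Srsf5 (ENSMUSG00000021134, chromosome 12, 80945504 to 80950507), an early response gene to insulin and growth stimuli in other cells, was the most variable member. Its values were 10221, 10055, 7104, 11000 and 6002 in LPD lines and 6595, 7037, 6374, 8241 and 6177 in NPD lines. LPD lines 1, 4 and 20 stood above every NPD line, LPD line 6 lay within the NPD range, and LPD line 40 was the lowest of all 10. The means were 8876 ± 2186 and 6885 ± 823 (SD, n = 5 each), a log2 fold change of 0.34 ± 0.16 with a 95% interval from -0.01 to 0.68 (limma p = 0.0569, adjusted p = 0.994, exact permutation p = 0.111).

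The Srsf5 difference was 0.47 ± 0.13 without LPD line 40 (limma adjusted p = 0.402) and 0.25 ± 0.16 without LPD line 20 (limma adjusted p = 0.966). With depth as a covariate it was 0.44 ± 0.20 (limma adjusted p = 0.999), and the unadjusted p was under 0.05 in 5 of 21 alternative fits. The 2 LPD lines low in Srsf5, lines 6 and 40, had 12361556 and 11252489 read equivalents and line 4, one of those high in it, had 5817367, and the part of depth in the split was not tested. Without LPD line 4 and NPD line 15 the log2 fold change was 0.29 ± 0.19 (limma adjusted p = 0.998).

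Srsf6 (ENSMUSG00000016921, chromosome 2, 162931528 to 162937121) was 3722, 4607, 5357, 5894 and 4238 in LPD lines and 4140, 3909, 4174, 4906 and 4764 in NPD lines. LPD line 1 was the lowest and LPD line 20 the highest of the 10, so the groups overlapped throughout, with a log2 fold change of 0.11 ± 0.12 (exact permutation p = 0.444, limma adjusted p = 0.994). Srsf4 (ENSMUSG00000028911, chromosome 4, 131873617 to 131901706) was 2190, 2392, 2403, 2609 and 2225 in LPD lines and 2244, 2168, 2285, 2349 and 2398 in NPD lines. It was among the steadiest members, with a log2 fold change of 0.04 ± 0.07 and a 95% interval from -0.12 to 0.21 (exact permutation p = 0.437, limma adjusted p = 0.994).

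Ratios within this group varied most where they included Srsf5. Srsf4 to Srsf5 was 0.214, 0.238, 0.338, 0.237 and 0.371 in LPD lines and 0.340, 0.308, 0.358, 0.285 and 0.388 in NPD lines. There, 3 of 5 LPD lines lay below every NPD line, with a difference of the log2 ratio of -0.29 ± 0.18 (exact permutation p = 0.135, adjusted p = 0.675). Srsf5 to Srsf6 ranged from 1.33 to 2.75 in LPD lines and from 1.30 to 1.80 in NPD lines, a difference of 0.23 ± 0.21 (exact permutation p = 0.310, adjusted p = 0.774). Srsf4 to Srsf6 ranged from 0.443 to 0.588 and from 0.479 to 0.555, a difference of -0.06 ± 0.09 (exact permutation p = 0.484, adjusted p = 0.807).

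**Figure D3:**
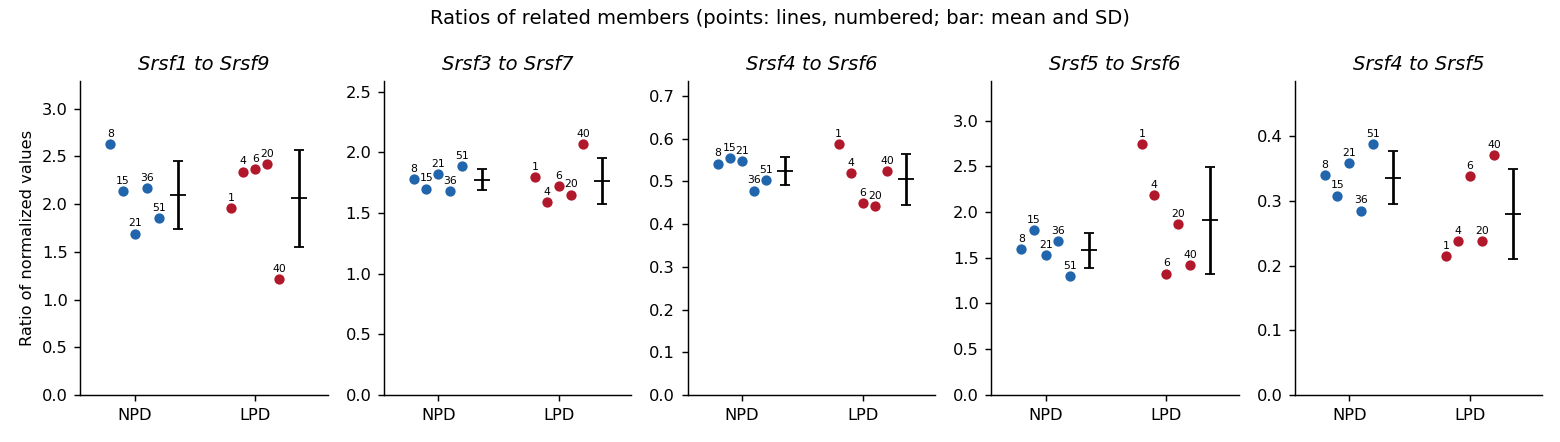
Ratio of the normalized values of 5 pairs of related members (y axis, from 0) in NPD lines (blue) and LPD lines (red), each point 1 line with its number, and the mean with SD in black. Srsf3 to Srsf7 stays between 1.59 and 2.07 in all lines, whereas Srsf5 to Srsf6 runs from 1.30 to 2.75.

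Srsf1 and Srsf9 share a pair of RNA recognition motifs, and SRSF1, the founding member, promotes the use of 5′ splice sites and also acts in export and translation. Srsf1 (ENSMUSG00000018379, chromosome 11, 88047373 to 88053755) was 4533, 5420, 6040, 6151 and 3649 in LPD lines and 5662, 5653, 4896, 6035 and 5159 in NPD lines. LPD lines held both the highest (line 20) and the lowest (line 40) value, and the SD on the log2 scale was 0.32 in LPD and 0.12 in NPD lines. Its log2 fold change was -0.11 ± 0.13 with a 95% interval from -0.40 to 0.18 (exact permutation p = 0.532, limma adjusted p = 0.994), and it was 0.0080 without LPD line 40. Every value of Srsf1 equalled that of a second identifier without a GENCODE M21 gene, so its reads cannot be assigned to 1 of them.

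Srsf9 (ENSMUSG00000029538, chromosome 5, 115327177 to 115333080) was 2312, 2315, 2554, 2544 and 2995 in LPD lines and 2151, 2647, 2894, 2781 and 2782 in NPD lines. The highest value was that of LPD line 40, the line lowest in Srsf1, and the log2 fold change was -0.06 ± 0.10 (exact permutation p = 0.571, limma adjusted p = 0.994). Srsf1 to Srsf9 was accordingly 1.22 in LPD line 40 and 1.69 to 2.63 in the other 9 lines, with means of 2.06 ± 0.50 in LPD and 2.10 ± 0.36 in NPD lines (SD, n = 5 each). The difference of the log2 ratio was -0.05 ± 0.22 (exact permutation p = 0.873, adjusted p = 0.889).

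Srsf2 encodes an SR protein found in nuclear speckles. Srsf2 (ENSMUSG00000034120, chromosome 11, 116849901 to 116853094) was 8382, 9861, 9568, 13064 and 10359 in LPD lines and 7359, 8070, 9822, 9487 and 9891 in NPD lines. LPD lines 20 and 40 were above every NPD line and the other 3 lay within the NPD range. The means were 10247 ± 1735 and 8926 ± 1144 (SD, n = 5 each), a log2 fold change of 0.19 ± 0.12 with a 95% interval from -0.08 to 0.46 (exact permutation p = 0.159, limma adjusted p = 0.994), which was 0.10 without LPD line 20. Mettl23 and Mfsd11, with means of 197.9 and 315.6, overlap Srsf2 on the opposite strand, and the sources used here do not say whether strand was used in the counting.

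Srsf10 and Srsf11 stand apart from the classical members, SRSF10 because it represses splicing when dephosphorylated. Srsf10 (ENSMUSG00000028676, chromosome 4, 135855747 to 135869908) was 3452, 3724, 4137, 3840 and 3602 in LPD lines and 3624, 3648, 3831, 3886 and 3756 in NPD lines. It was the member with the smallest residual SD, 0.08 on the log2 scale, and its log2 fold change was -0.00 ± 0.07 with a 95% interval from -0.16 to 0.15 (exact permutation p = 0.992, limma adjusted p = 0.999). Srsf11 (ENSMUSG00000055436, chromosome 3, 158010473 to 158036639) was 3153, 3284, 3067, 3158 and 2682 in LPD lines and 3418, 3089, 3024, 3343 and 3316 in NPD lines, which gave a log2 fold change of -0.08 ± 0.08 (exact permutation p = 0.254, limma adjusted p = 0.994). Its highest value was in NPD line 8, where the median log2 deviation of chromosome 3 over genes whose mean was 100 or more was 0.18, against -0.04 to 0.04 in the other lines, and its lowest was in LPD line 40. The log2 fold change of Srsf11 was -0.06 ± 0.08 with chromosome medians removed, -0.06 ± 0.08 without NPD line 8 and -0.03 ± 0.07 without LPD line 40.

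**Figure D4:**
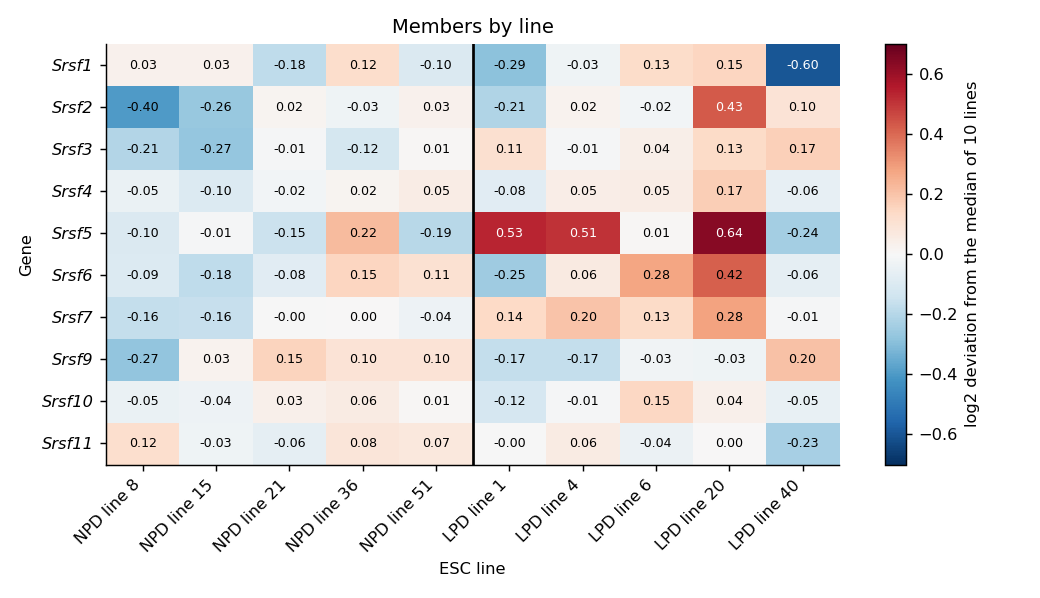
Log2 deviation of each member (rows) from its own median over the 10 lines, for NPD lines on the left and LPD lines on the right of the black line, from blue (lower) to red (higher), with the value in each cell. LPD line 20 is above the median for 9 of 10 members, and LPD line 40 combines the lowest Srsf1 cell (-0.60) with raised Srsf3 and Srsf9.

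Read by line, some lines held most members to one side and others did not. LPD line 20 held the highest value of 6 members (Srsf1, Srsf2, Srsf4, Srsf5, Srsf6 and Srsf7) and lay above the median for 9 of 10, with a median deviation of 0.16. The same line was high for abundant genes in general, with a median deviation of 0.09 over the 3838 genes whose mean was 1000 or more, of which 70.5% were above their median. NPD line 36 was above the median for 8 members, and NPD lines 8 and 15 for 2 each, while the median deviations of abundant genes in these lines were -0.01, -0.02 and -0.03. In the same order, 46.0%, 42.6% and 39.4% of the abundant genes were above their median. LPD line 40 was the lowest line for Srsf1, Srsf5 and Srsf11 and the highest for Srsf3 and Srsf9. Its deviations spanned 0.81, close to the 0.82 of LPD line 1, in which Srsf5 was 0.53 above and Srsf1 0.29 below the median. NPD lines 15, 21, 36 and 51 spanned 0.30 to 0.34 and NPD line 8 spanned 0.51, but LPD line 6 also spanned only 0.32.

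The members were abundant and mostly steady genes. Their means over the 10 lines ran from 2326 (Srsf4) to 11847 (Srsf3), and together they made up 0.308% to 0.378% of the sum of a line. Their summed value was 60694 ± 5182 in LPD and 54792 ± 3078 in NPD lines (SD, n = 5 each), which is given as a description. The median residual SD was 0.13 on the log2 scale for the members, beside 0.17 for 3838 genes with a mean of at least 1000 and 0.27 for all genes tested. A set of 4 members exceeded the 0.17 of those abundant genes: Srsf5 (0.29), Srsf1 (0.24), Srsf2 (0.21) and Srsf6 (0.21).

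Levels were compared between members only per kb of the mean length of their protein-coding transcripts in GENCODE M21. On this scale Srsf2 (5945), Srsf5 (5203), Srsf3 (4525) and Srsf7 (3996) were highest, followed by Srsf9 (2693), Srsf6 (2262), Srsf11 (1813), Srsf1 (1677), Srsf10 (1240) and Srsf4 (1031). Srsf3 was above Srsf7, Srsf7 above Srsf9, Srsf6 above Srsf11 and Srsf10 above Srsf4 in 10 of 10 lines on this scale. The other neighbours changed places in some lines, Srsf2 being above Srsf5 in 8, Srsf5 above Srsf3 in 7, Srsf9 above Srsf6 in 8, Srsf11 above Srsf1 in 7 and Srsf1 above Srsf10 in 9 of 10. With the union of all exons as length, Srsf2 (3241), Srsf5 (1976) and Srsf7 (1890) led, while Srsf3 was at rank 5 (1500) and Srsf11 last (373), below Srsf4 and Srsf10. On that scale the orders of Srsf3 and Srsf7 and of Srsf10 and Srsf4 turned, Srsf4 being above Srsf10 in 10 of 10 lines, so ranks below the first 2 depend on the length used. The place of Srsf1 is also uncertain because its values equal those of a second identifier.

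**Figure D5:**
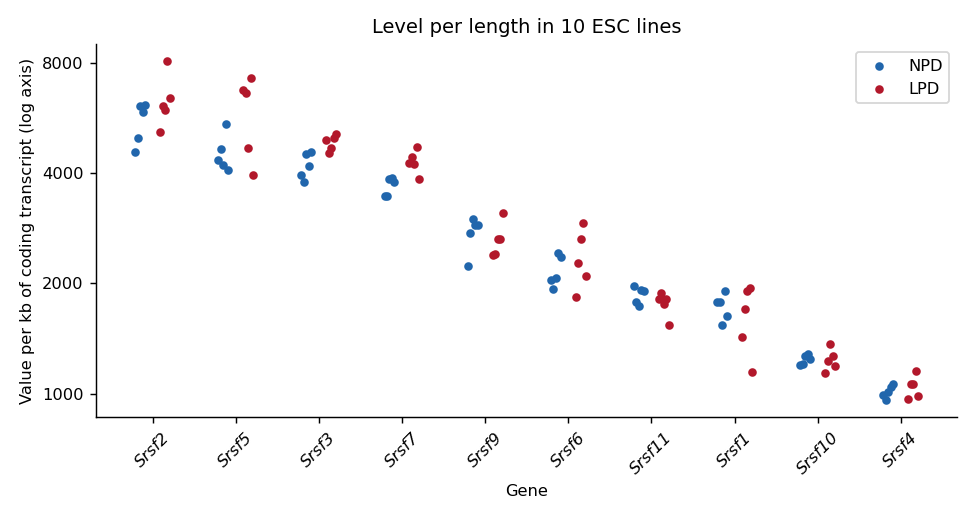
Value per kb of coding transcript (y axis, log scale) of each member in the 5 NPD lines (blue) and the 5 LPD lines (red), ordered by the mean over all lines. Srsf2, Srsf5, Srsf3 and Srsf7 form an upper set, and Srsf4 is lowest at 1031 per kb on average.

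Each value covers all transcripts of a gene. NMD transcripts are annotated for 9 of the 10 members, all but Srsf10, and the gene values cannot separate them from coding transcripts. Close copies, here transcripts of other genes with at least 90% identity over at least 200 bases, are annotated at other loci for 4 members, apart from genes that overlap a member: 5 for Srsf3, up to 99.6% identical, 3 for Srsf10 and 1 each for Srsf5 and Srsf7. The only one of these copies with a value used here was a pseudogene of Srsf10, with a mean of 0.758. Overlapping genes share identical sequence with 2 more members, Srsf2 with Mettl23 (460 bases) and Mfsd11 (289 bases), and Srsf4 with Gm12992 (1447 bases).

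For the kinases that phosphorylate SR proteins, no gene passed in the comparison of all lines. Of 9 kinase genes tested, 0 had an unadjusted p under 0.05 in limma in either direction and 0 passed adjustment, with a median log2 fold change of -0.04. Srpk1, the main cytoplasmic SR kinase, had means of 2766 ± 427 in LPD and 2877 ± 358 in NPD lines, and Srpk2 had 939.8 ± 207 and 967.1 ± 228 (SD, n = 5 each). Clk2, a nuclear SR kinase, was 1032, 1097, 1224, 1114 and 1633 in LPD lines and 1590, 1252, 1470, 1437 and 1452 in NPD lines. Here 4 LPD lines lay below every NPD line and LPD line 40 lay above all, with a log2 fold change of -0.25 ± 0.12 (exact permutation p = 0.0952, limma adjusted p = 0.994). In 5 of 21 alternative fits, those with equal totals, quantile normalization, array weights, without LPD line 40 or without NPD line 15, Clk2 had an unadjusted p under 0.05, with a log2 fold change of -0.36 without LPD line 40 and a limma adjusted p of at least 0.267.

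Clk1 varied most, from 485.3 to 1501 in LPD and from 714.8 to 1660 in NPD lines, with a log2 fold change of -0.41 ± 0.31 (exact permutation p = 0.286, limma adjusted p = 0.994). The log2 fold changes of the remaining kinases were 0.11 for Dyrk1a, 0.04 for Clk3, 0.00 for Dyrk1b, -0.04 for Prpf4b and -0.10 for Clk4. Srpk3, at 0 to 5.07, was too low to be tested.

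Among 32 SR-related proteins, 3 had lower and 1 higher values in LPD lines at an unadjusted limma p under 0.05, and 0 passed adjustment. These are 4 of 32, against 5.02% of all genes, and the median log2 fold change was -0.03. The count of 3 was 1, Srrm2 alone, without LPD line 4 and NPD line 15, 1 with depth as a covariate, without LPD line 1 or without NPD line 21, and 2 to 4 in the other fits, and the count of 1 higher was 0 without both lines. Srrm2, a large scaffold protein of nuclear speckles, was 6856, 7604, 7287, 6493 and 7750 in LPD lines and 7858, 8755, 9072, 8391 and 8329 in NPD lines. All 5 LPD lines lay below all 5 NPD lines, as for 0.495% of all genes tested in that direction. Its log2 fold change was -0.24 ± 0.08 (limma p = 0.00890, adjusted p = 0.756, exact permutation p = 0.00794), and the unadjusted p was under 0.05 in 21 of 21 alternative fits.

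Luc7l, a homologue of a U1 snRNP component, was 1690 ± 172 in LPD and 1973 ± 157 in NPD lines (SD, n = 5 each), a log2 fold change of -0.23 ± 0.09 (exact permutation p = 0.0317, limma adjusted p = 0.952). Arglu1 was 1877 ± 230 and 2194 ± 127 (SD, n = 5 each), a log2 fold change of -0.23 ± 0.09 (exact permutation p = 0.0317, limma adjusted p = 0.952). For each of them 4 LPD lines were below every NPD line, and the unadjusted p was under 0.05 in 13 and 14 of 21 alternative fits. Srrm2, Luc7l and Arglu1 were named because of their small unadjusted p, so that p is no separate evidence for them. The gene with higher values, Srrm4, the neural regulator of microexons, was added after its values were seen. Srrm4 was at 136.9 ± 7.9 and 103.4 ± 27.2 (SD, n = 5 each) with a log2 fold change of 0.44 ± 0.20 (exact permutation p = 0.0238, limma adjusted p = 0.982). It kept an unadjusted p under 0.05 in 8 of 21 fits.

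Tra2a and Tra2b, SR-like activators of exon inclusion, had log2 fold changes of 0.03 ± 0.12 and 0.05 ± 0.09 (exact permutation p = 0.833 and 0.540). Srsf12, the relative of Srsf10, was low, at most 37.2 in any line, with a log2 fold change of 0.23 ± 0.30 (exact permutation p = 0.365, limma adjusted p = 0.994).

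The other splicing groups held no gene at an unadjusted limma p under 0.05 in either direction, and none passed adjustment. These were 27 hnRNPs and other antagonists of SR proteins (median log2 fold change 0.00, from -0.24 to 0.12), 27 genes of the U1 and U2 snRNPs and U2AF (0.02, from -0.16 to 0.14), 15 NMD factors (0.01, from -0.27 to 0.19) and 13 genes of SR protein import and mRNA export (-0.01, from -0.11 to 0.11).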

How the data were processed

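RNA was sequenced from 5 LPD and 5 NPD ESC lines, each taken as 1 replicate. Per the paper, the authors trimmed adaptors with cutadapt, quantified GRCm38 transcripts with Salmon and tested transcripts with sleuth 0.30.0. The authors deposited 1 table of normalized signal, whose name points to estimated counts scaled by DESeq2, and how transcripts were summed to genes is not given in the sources used here. These are not whole counts, so no count model was used. On the log2(value + 1) scale, 14354 genes (mean of 10 or more) entered limma 3.58.1, run in R 4.3.3 with a mean-variance trend, no covariate and Benjamini-Hochberg adjustment at 0.1. Single ratios were tested by exact permutation. Depth was the sum of a line over the value of 1 read, estimated from low values. Intervals are 95% intervals. Positions are from GENCODE M21, promoters from RefSeq (windows found for all 10 members). Named genes were the members, the SR kinases, Srsf12, Tra2a, Tra2b and up to 3 genes per list with the smallest unadjusted p under 0.05. Srrm4 was added to these. The members, lists and motifs were chosen with earlier results of these data known. The fit was tested on simulated data. Protein sequences were not used here.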

Additional observations from a re-analysis of the deposited data

How the results depend on the processing

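The 10 members kept their direction in 21 of 21 alternative limma fits (pseudocounts of 0.5 and 10, no filter, a mean of at least 100, equal totals, quantile normalization, no trend, array weights, depth as a covariate, chromosome medians removed, lines left out), except Srsf1, at 0.0080 without LPD line 40 (-0.18 to 0.0080 with 1 line left out), and Srsf10, above 0 (-0.037 to 0.028 with 1 line left out) without LPD line 1, 4 or 40 or NPD line 21 or 36. Members higher in LPD lines at an unadjusted p under 0.05 numbered 1 to 3 when 1 line was left out and 0 without LPD line 4 and NPD line 15 together. Over all genes, 1 gene had an adjusted p under 0.1 with array weights, and 0 to 40 had one when 1 line was left out, with 40 reached without LPD line 40. With equal totals, 295 genes were higher and 439 lower at an unadjusted p under 0.05, against 408 and 313, and the median log2 fold change of all genes was -0.03. The difference in the log2 ratio of Srsf3 to Srsf7 was 0.0093 without LPD line 4 and NPD line 15. The ratio differences with 1 line left out ran from -0.071 to 0.024 for Srsf3 to Srsf7 and from -0.13 to 0.13 for Srsf1 to Srsf9. The cause of these changes was not tested. No paired analysis was possible because the groups share no line number. With 5 lines a group, 0 adjusted calls do not show equal levels, and the smallest difference that could have been detected was not calculated. Lines are separate cultures, but how they were handled in batches is not given in the sources used here. Among 30 groups of 5 values, 0 held a line far from the others by Dixon's criterion.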
